A study of Homo sapiens with 3 samples.

Results

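The G2/M and mitosis genes described here are 48 human genes chosen by name as known components of entry into mitosis, the spindle, the kinetochore and cell division. They were chosen with earlier results of these data known, so their shares beside all genes are descriptions and not independent tests. Of the 48, 45 had values on at least 2 arrays and stand among 11741 genes tested in the whole series. The genes AURKB and UBE2C had 0 spots annotated to them alone and so have no ratio here, though AURKB enters the promoter windows below. CDC20, the activator of the anaphase-promoting complex, had a value of 0.0902 on array 3 only. BEAS-2B cells received MTX at 0.144 µM for 48 h, a dose given as the one for 20% inhibition, and their RNA was compared with that of BEAS-2B cells given DMSO. The cells had grown for 24 h before treatment. BEAS-2B is a single immortalised line of human bronchial epithelium, made with an adenovirus-SV40 hybrid, so both treatments share the viral T antigen, which binds p53 and the retinoblastoma family. The labels leave the abbreviation MTX unexpanded. Each of 3 two-colour arrays carried MTX RNA in Cy5 and DMSO RNA in Cy3, with no exchange of dyes, so each array gives 1 ratio per spot and the arrays form 1 group.

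All values below are log ratios of MTX over DMSO in the deposited units. No source used here names the log base. Folds are written on base 10 as a working choice, with base 2 beside them for some genes, and on base 2 every fold would be smaller. A positive value is read as higher with MTX from the labelled dyes and the usual order of Cy5 over Cy3, which makes the direction likely but not settled. A gene-specific dye effect is part of every value. Ratios carry no levels, so the epithelial identity of the cells could not be checked against marker genes, and a change in the share of cells in G2/M cannot be told apart from a change in RNA per cell. Nothing in the labels says that the arrays came from separate cultures, and the p-values then measure only the spread between these arrays.

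Cells commit to mitosis when cyclin B and CDK1 form an active kinase, which CDC25 phosphatases switch on. The kinetochore then ties chromosomes to spindle microtubules, and the checkpoint proteins around it hold back the anaphase-promoting complex until every chromosome is attached. Transcripts of these genes build up late in the cycle and are low in resting cells. Many of their promoters carry a cell cycle homology region (CHR), bound by the DREAM and MuvB complexes, downstream of CCAAT boxes bound by NF-Y. In cells with working p53 and retinoblastoma proteins, arrest through p21 is known to lower such transcripts.

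With MTX, 11 of the 45 measured genes rose and 1 fell, and 33 did not pass (limma, adjusted p under 0.05 over all 11741 genes). The 11 that rose are 24.4% of the measured genes, against 8.16% of all genes tested. The 1 that fell is 2.22%, against 5.75% of all genes. The mitotic motor KIF18A had the highest mean, 0.218 ± 0.0744 (SD, n = 3), and the mitotic kinase PLK1 the lowest, -0.144 ± 0.0541 (SD, n = 3). The shifts were small. The median of the 45 means was 0.0620, with medians of 0.0680, 0.0582 and 0.0429 on arrays 1, 2 and 3, against a median of 0.00601 over all genes. Means lay above 0 for 33 genes and below 0 for 12. Of the 41 genes with values on all 3 arrays, 29 (70.7%) had 1 sign throughout, against 62.0% of all genes so measured. By role, 5 of 17 motor, spindle and cytokinesis genes rose, 3 of 12 kinases, cyclins and regulators, 2 of 14 kinetochore, checkpoint and mitotic exit genes, and 1 of the 2 chromosome proteins. With 3 arrays an exact test by sign change cannot go below p = 0.25 for a single gene, so every call rests on the spread that limma pools over genes.

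**Figure D1:**
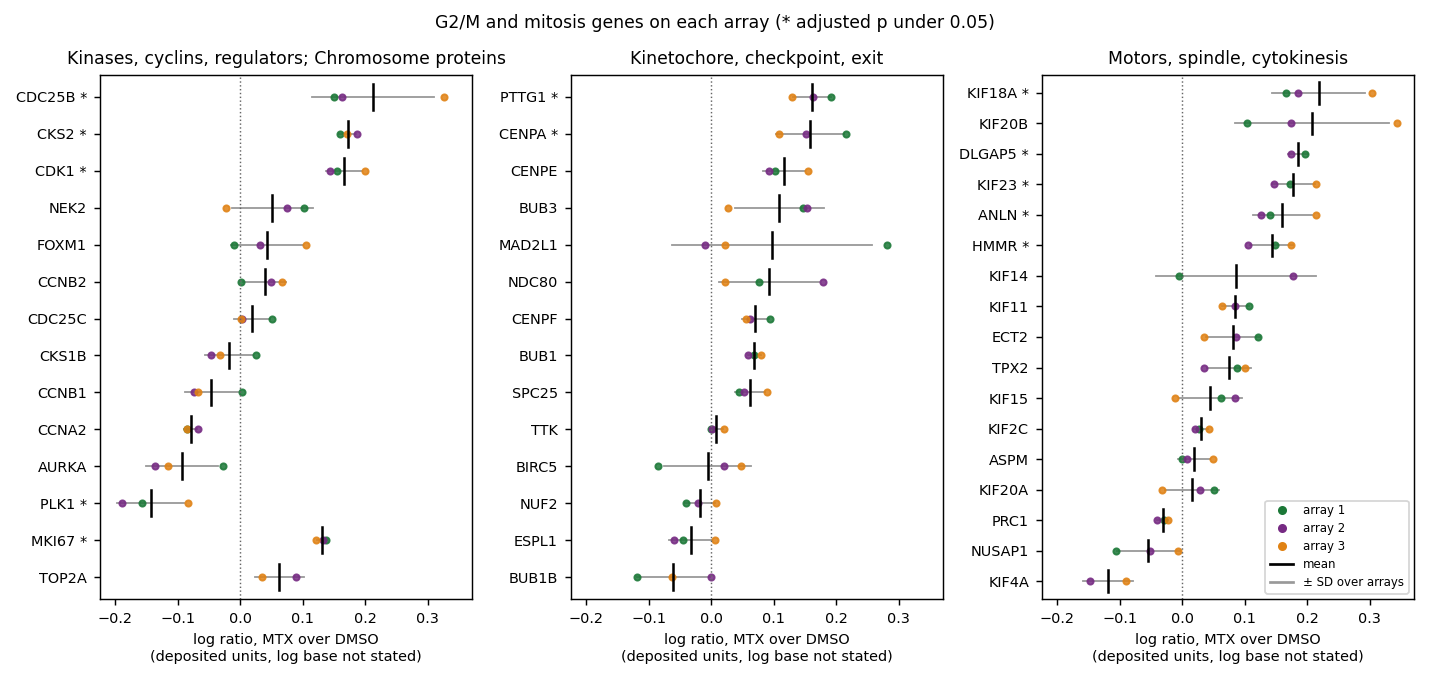
Log ratio of MTX over DMSO (horizontal, deposited units) for each of the 45 measured genes, in 3 panels by role; coloured points are the arrays, black ticks the means and grey bars the SD over arrays, and an asterisk marks an adjusted p under 0.05. KIF18A stands highest at 0.218 and PLK1 lowest at -0.144, and the genes that rose lie to the right of 0 on every array that measured them.

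**Figure D2:**
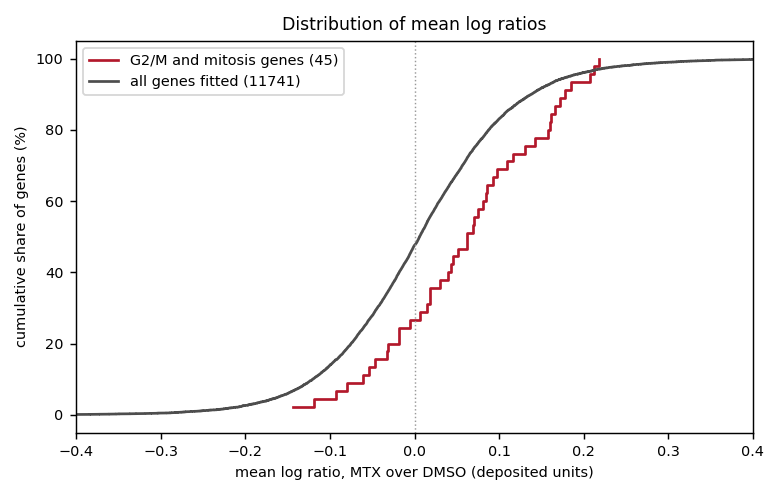
Cumulative share of genes (vertical, %) by mean log ratio (horizontal, deposited units) for the 45 G2/M and mitosis genes and all 11741 genes fitted. The curve of the G2/M and mitosis genes lies to the right through its middle, with a median of 0.0620 against 0.00601, and its ends stay inside -0.144 and 0.218.

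The promoter letters are shown because the genes share them whichever way they moved. RefSeq windows of the GRCh38.p14 build, running from 250 bases before a gene's start to 50 after it, were matched for 41 of the 48 genes, some with several starts, giving 51 windows. The CHR was searched as TTTGAA and the variants TTCGAA and TTTAAA, and other forms of it were not searched. The CCAAT box was searched as CCAAT. Both strands were read, so the CHR can also appear as TTCAAA and the box as ATTGG, and matches may share bases, as the 2 boxes at -69 and -66 in HMMR do. A CHR was found in 43 of the 51 windows (84.3%), against 25.1% of all 35116 RefSeq windows, and a CCAAT box in 39 (76.5%), against 34.6%. Both were found in 34 windows (66.7%), against 9.70% of all windows. The genes that rose held a CHR in 14 of 16 windows, those that did not pass in 27 of 31, and those with a mean below 0 in 9 of 10. A match describes the letters and is not a binding site. For 8 genes, the bases from -110 to -1 are printed 5′ to 3′ on the gene's strand, with the base before the start as -1 and capitals marking CHR and CCAAT letters. The first 5 show CKS2 with its relative CKS1B and 3 other genes that rose, and the last 3 show PLK1, which fell, with the cyclin genes CCNA2 and CCNB2, which did not pass.
CKS2 (chr9:89311085-89311194, plus strand): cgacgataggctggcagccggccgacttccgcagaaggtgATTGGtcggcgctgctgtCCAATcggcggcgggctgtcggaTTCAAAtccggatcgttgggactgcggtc
CKS1B (chr1:154974571-154974680, plus strand): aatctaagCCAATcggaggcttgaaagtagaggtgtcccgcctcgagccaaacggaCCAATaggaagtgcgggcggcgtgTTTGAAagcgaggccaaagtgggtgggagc
KIF23 (chr15:69414239-69414348, plus strand): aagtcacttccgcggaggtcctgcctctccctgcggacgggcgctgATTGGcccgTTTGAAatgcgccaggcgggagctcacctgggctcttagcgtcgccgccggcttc
KIF18A (chr11:28108157-28108266, minus strand): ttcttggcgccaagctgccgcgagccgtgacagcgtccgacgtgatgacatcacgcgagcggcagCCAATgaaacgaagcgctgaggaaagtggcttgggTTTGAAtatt
HMMR (chr5:163460522-163460631, plus strand): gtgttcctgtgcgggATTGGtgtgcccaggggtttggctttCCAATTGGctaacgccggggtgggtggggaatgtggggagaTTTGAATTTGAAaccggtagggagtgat
PLK1 (chr16:23678779-23678888, plus strand): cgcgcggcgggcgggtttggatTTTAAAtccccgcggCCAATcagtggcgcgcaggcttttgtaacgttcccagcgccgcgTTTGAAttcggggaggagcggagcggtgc
CCNA2 (chr4:121823884-121823993, minus strand): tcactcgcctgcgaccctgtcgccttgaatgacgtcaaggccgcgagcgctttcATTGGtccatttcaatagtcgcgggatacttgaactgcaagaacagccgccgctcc
CCNB2 (chr15:59105036-59105145, plus strand): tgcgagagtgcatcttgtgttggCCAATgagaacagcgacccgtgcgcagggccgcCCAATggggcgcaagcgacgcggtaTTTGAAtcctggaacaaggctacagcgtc
In CKS2 and CKS1B the CHR starts at -29 and -30 and the nearest CCAAT box at -52 and -54. PLK1 and CCNB2 both have a CHR at -29, with CCAAT boxes at -73 in PLK1 and at -54 and -87 in CCNB2. CCNA2 has a CCAAT box at -56, and none of the CHR letters searched are in its window. Its printed bases do hold cttgaa, which differs from TTTGAA in the first letter only and was not searched. The search therefore does not show that CCNA2 lacks a CHR.

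**Figure D3:**
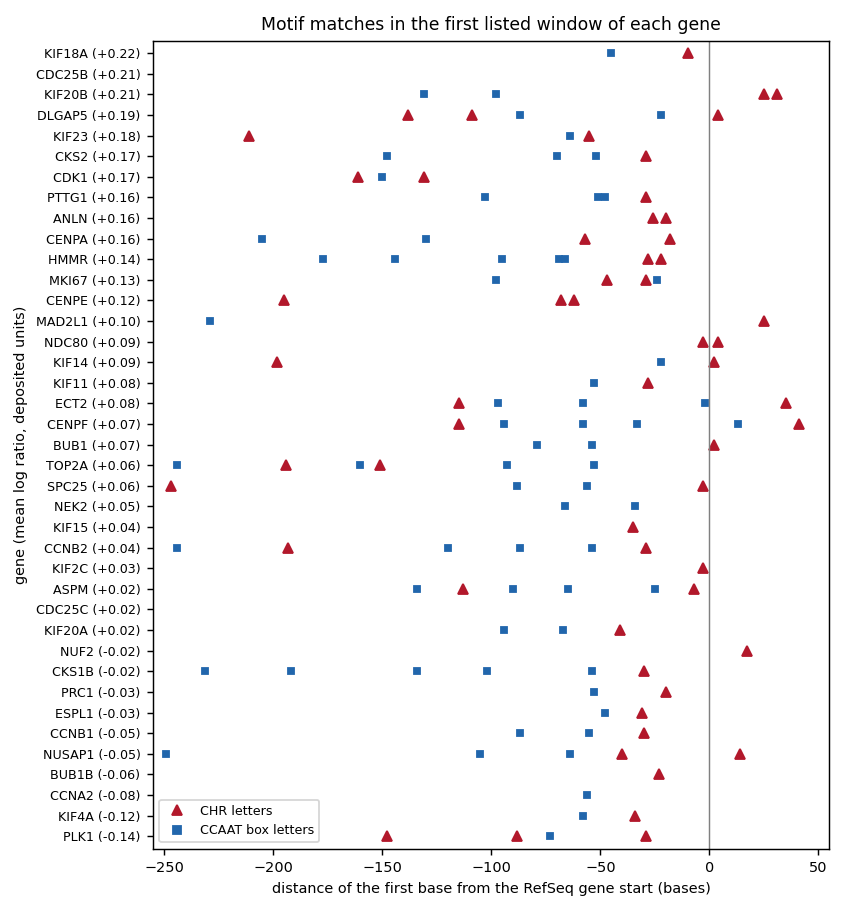
Position of CHR letters (triangles) and CCAAT box letters (squares) relative to the RefSeq gene start (horizontal, bases), in the first listed window of each measured gene that has one, with genes ordered down the page by mean log ratio. AURKA, FOXM1, BUB3, TTK, BIRC5 and TPX2 had no matched window and are not drawn. Triangles within 50 bases before the start are seen at the top, as in KIF18A at -10, and at the bottom, as in PLK1 at -29, and CDC25B and CDC25C, which have several starts, show no match in the first of them.

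Among kinases, cyclins and their regulators, 3 of the 12 measured genes rose, 1 fell and 8 did not pass, and their median was 0.0290. CDK1, the kinase that drives mitosis, had 0.155, 0.144 and 0.199 on arrays 1, 2 and 3, a mean of 0.166 ± 0.0291 (SD, n = 3, limma adjusted p = 0.0308). The arrays lay close together, and its 2 spots averaged 0.147 and 0.185. On base 10 this is 1.46-fold, and on base 2 it is 1.12-fold. CKS2, a small CDK-binding subunit, had 0.159, 0.186 and 0.170, the tightest set of the genes in this role that rose (mean 0.172 ± 0.0134, n = 3, limma adjusted p = 0.0269, 1.49-fold on base 10). Its close relative CKS1B, which also helps degrade the inhibitor p27, had 0.0251, -0.0473 and -0.0323, with array 1 on the other side of 0. CKS1B averaged -0.0182 (limma adjusted p = 0.645), and its 3 spots ran from -0.109 to 0.0303. Whether each spot tells the CKS genes apart was not tested. CDC25B, the phosphatase that starts CDK1 activation, had 0.149, 0.163 and 0.325, so array 3 was far above the other arrays (mean 0.213 ± 0.0979, n = 3, limma adjusted p = 0.0478). CDC25B missed the threshold when arrays were centred on their medians (limma adjusted p = 0.0502). CDC25C, a related phosphatase, averaged 0.0188 and did not pass.

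PLK1, the kinase of centrosome maturation and mitotic progression, was the gene that fell. Its values were -0.158, -0.189 and -0.0838 on arrays 1, 2 and 3, a mean of -0.144 ± 0.0541 (n = 3, limma adjusted p = 0.0488, 1.39-fold lower on base 10). All arrays were below 0, but 1 of its 2 spots had values on arrays 1 and 2 only, -0.275 and -0.252. The other spot had -0.0403, -0.127 and -0.0838, and with spots on all 3 arrays alone PLK1 averaged -0.0836 and did not pass (limma adjusted p = 0.0666). Without array 2, which leaves only that spot, PLK1 averaged -0.0621 (limma adjusted p = 0.402). AURKA, the kinase that activates PLK1 at centrosomes, had -0.0282, -0.136 and -0.115. It lay below 0 on every array and did not pass (mean -0.0932, limma adjusted p = 0.107). Cyclin A2 (CCNA2), which pairs with CDK2 and then CDK1, had -0.0859, -0.0672 and -0.0854 as averages of 10 spots, close together and below 0. It averaged -0.0795 ± 0.0106 (n = 3, limma adjusted p = 0.0758), and passed when the same spots were tested among the 9394 genes with spots on all 3 arrays (limma adjusted p = 0.0430). The B cyclins, partners of CDK1, stood on either side of 0, with CCNB1 at -0.0467 and CCNB2 at 0.0393, and neither passed (limma adjusted p = 0.273 and 0.316). The centrosome kinase NEK2 averaged 0.0513, and FOXM1, a transcription factor of late cell-cycle genes, averaged 0.0428. FOXM1 ran from -0.00940 on array 1 to 0.105 on array 3, and neither of these genes passed.

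Among kinetochore, checkpoint and mitotic exit genes, 2 of the 14 measured rose, 0 fell and 12 did not pass, with a median of 0.0696 (6 of the 14 had an unadjusted limma p under 0.05, near the 36.9% of all genes that did). PTTG1, the securin that restrains the cohesin-cutting enzyme separase, had 0.191, 0.162 and 0.130, above 0 throughout (mean 0.161 ± 0.0310, n = 3, limma adjusted p = 0.0328, 1.45-fold on base 10). ESPL1, separase itself, had -0.0447, -0.0592 and 0.00588, so array 3 lay on the other side of 0. It averaged -0.0327 and did not pass. PTTG1 has near-identical gene copies, and whether its spot tells them apart was not tested. CENPA, the histone H3 variant that marks centromeres, had 0.216, 0.151 and 0.108 (mean 0.158 ± 0.0547, n = 3, limma adjusted p = 0.0431). Its highest array was at 2 times its lowest.

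CENPE, the kinesin that carries chromosomes to the metaphase plate, was measured by 10 spots that averaged 0.103, 0.0923 and 0.154 on arrays 1, 2 and 3. Every spot had a mean above 0, from 0.0904 to 0.174. CENPE averaged 0.116 ± 0.0333 (n = 3) and missed the threshold narrowly (limma adjusted p = 0.0509). It passed with a robust spread model (limma adjusted p = 0.0496), with spot offsets removed (0.0455) and with spots on all 3 arrays alone (0.0268). It also passed with array weights (0.0108) and without array 3 (0.0212). It did not pass with arrays centred (0.0568), centred and scaled (0.0589), or with the median over spots (0.0531). Nor did it pass with its first spot (0.0593) or with a running median of neighbouring spots removed (0.0529). Without array 1 and without array 2 its adjusted p in limma was 0.164 and 0.174. Among checkpoint genes, the kinase BUB1 had 0.0680, 0.0582 and 0.0795, an even set that did not pass (mean 0.0686, limma adjusted p = 0.100). Its partner BUB3 averaged 0.109, with 0.146 and 0.154 on arrays 1 and 2 and 0.0272 on array 3. On array 3 the spots of BUB3 stood on both sides of 0, at 0.0645, 0.183 and -0.166. BUB1B, the checkpoint protein BUBR1, averaged -0.0605, and the checkpoint kinase TTK averaged 0.00697. MAD2L1, which binds CDC20 when kinetochores are free, rested on 1 array. It had 0.281 on array 1, against -0.0108 and 0.0212 on arrays 2 and 3. In the NDC80 complex, which grips microtubules, NDC80, SPC25 and NUF2 averaged 0.0923, 0.0617 and -0.0179, and none passed (limma adjusted p = 0.154, 0.136 and 0.612). For the gene NDC80, 1 of its 2 spots lacked array 1 and had 0.308 and -0.0511 on arrays 2 and 3. The other spot had 0.0761, 0.0486 and 0.0957, and with spots on all 3 arrays alone NDC80 did not pass either (limma adjusted p = 0.0613). The large kinetochore protein CENPF averaged 0.0705 (limma adjusted p = 0.104), and BIRC5, the survivin subunit of the chromosomal passenger complex, averaged -0.00588.

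Motors, spindle and cytokinesis genes had the largest share of genes that rose among the 3 larger roles, 5 of 17 (29.4%), with 0 that fell and a median of 0.0809. A test of the difference between roles was not made. Of these 17, 10 had an unadjusted limma p under 0.05, beside 36.9% of all genes. KIF18A, which shortens microtubule ends at kinetochores, had 0.166, 0.185 and 0.303, with array 3 the highest (mean 0.218 ± 0.0744, n = 3, limma adjusted p = 0.0353). This is 1.65-fold on base 10 and 1.16-fold on base 2, and 97.0% of all genes had a lower mean. KIF23, the motor of the central spindle, had 0.172, 0.146 and 0.214, all well above 0 (mean 0.177 ± 0.0344, n = 3, limma adjusted p = 0.0301). ANLN, the anillin of the contractile ring, had 0.141, 0.125 and 0.214 (mean 0.160 ± 0.0475, n = 3, limma adjusted p = 0.0384). HMMR, a spindle assembly factor and hyaluronan receptor, had 0.148, 0.106 and 0.174 (mean 0.143 ± 0.0344, n = 3, limma adjusted p = 0.0384). For KIF23, ANLN and HMMR alike, array 2 was the lowest and array 3 the highest.

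DLGAP5, a microtubule-bundling protein also called HURP, had 0.197 and 0.174 on arrays 1 and 2 and no value on array 3. Its mean was 0.185 ± 0.0165 (n = 2, limma adjusted p = 0.0467), and as the first spot of each gene it gave an adjusted p of 0.0504 in limma. KIF20B, a cytokinesis kinesin, had 0.104, 0.174 and 0.344. Its mean of 0.207 ± 0.124 (n = 3) was above that of KIF23, but the arrays spread widely and it did not pass (limma adjusted p = 0.0666). KIF11, the motor that pushes spindle poles apart, had 0.107, 0.0840 and 0.0631, a mean of 0.0847 (limma adjusted p = 0.0746). The spindle assembly factor TPX2 averaged 0.0745 and ECT2, the exchange factor that starts furrowing, 0.0809, and neither passed. ECT2 had 0.121, 0.0864 and 0.0349, all above 0. The 3 spots of ECT2 ran from -0.0216 to 0.177, on both sides of 0.

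The other motors stood nearer 0 or lacked an array. KIF4A, a chromosome-bound motor, had -0.147 and -0.0907 on arrays 2 and 3 and was the lowest gene in this role (mean -0.119, n = 2, limma adjusted p = 0.101). KIF14, a motor of cytokinesis, had -0.00482 and 0.177 on arrays 1 and 2, values far apart from each other. KIF15, which backs up KIF11, averaged 0.0450 and the microtubule depolymerase KIF2C 0.0297, and neither passed. PRC1, the bundler of the central spindle, had -0.0291, -0.0408 and -0.0234, an even set just below 0 (limma adjusted p = 0.350). NUSAP1, a spindle-associated protein, averaged -0.0543 and ASPM, a spindle pole protein, 0.0188, with its arrays from -2.72e-05 to 0.0487. The 2 spots of ASPM averaged -0.0456 and 0.0832, on opposite sides of 0. KIF20A, a partner of the passenger complex in cytokinesis, had 0.0505, 0.0279 and -0.0331 as averages of 10 spots, with array 3 below 0 (mean 0.0151, limma adjusted p = 0.715).

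Of the chromosome proteins, MKI67, which coats mitotic chromosomes and serves as a proliferation marker, had 0.137, 0.133 and 0.122. These lay closer together than in any other member that rose (mean 0.131 ± 0.00806, n = 3, limma adjusted p = 0.0354, 1.35-fold on base 10). TOP2A, the topoisomerase that untangles sister chromatids, had 0.0897 and 0.0342 on arrays 2 and 3 (mean 0.0620, n = 2, limma adjusted p = 0.268). Both were above 0, and the gene did not pass.

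CENPE, KIF20A and CCNA2, each measured by 10 spots, show how far single spots scatter. For CCNA2, 9 spots averaged below 0 and 1 above it, from -0.164 to 0.0197, and 2 spots passed when tested singly. For KIF20A, 6 spots averaged above 0 and 4 below, from -0.0804 to 0.219. The highest of these had 0.356 and 0.336 on arrays 1 and 2 and -0.0352 on array 3. Without it KIF20A averaged -0.00756. The SD between spots was 0.0711, 0.0780 and 0.104 on arrays 1, 2 and 3 for CCNA2. It was 0.120, 0.122 and 0.0857 for KIF20A, and 0.0735, 0.0331 and 0.0544 for CENPE. Of the 11 genes that rose, 10 rest on 1 spot each, so such scatter is not averaged out in them.

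**Figure D4:**
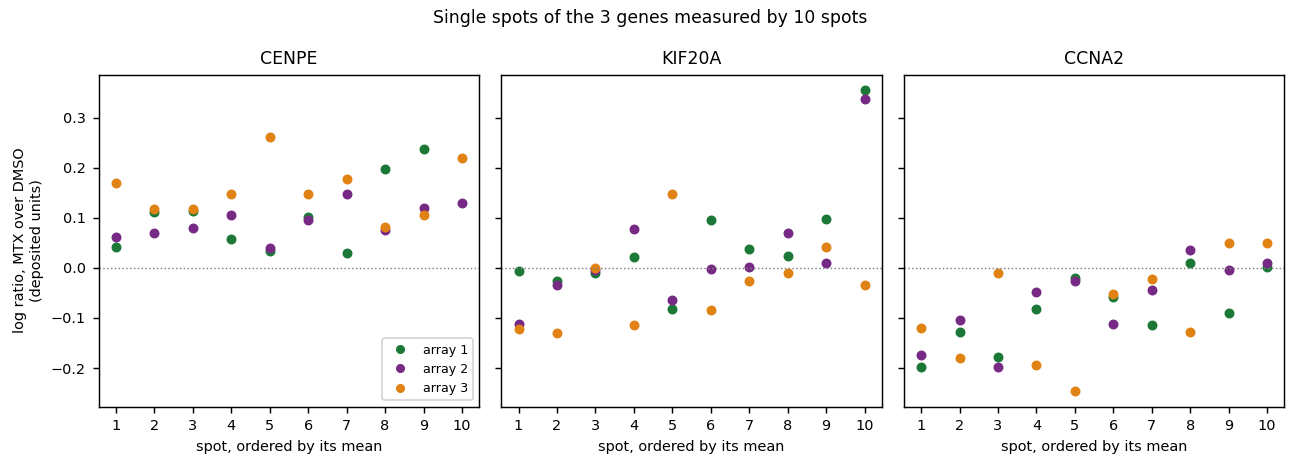
Log ratio of MTX over DMSO (vertical, deposited units) on each array (colours) for each of the 10 spots of CENPE, KIF20A and CCNA2, ordered by spot mean. All CENPE spots have means above 0, while 1 KIF20A spot stands at 0.356 and 0.336 on arrays 1 and 2 and at -0.0352 on array 3.

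Deviations of a spot from the average of its gene recurred between arrays 1 and 2. Over 482 spots of the 46 genes with at least 10 spots on all arrays, they correlated at r = 0.592 between arrays 1 and 2, 0.125 between arrays 1 and 3 and 0.247 between arrays 2 and 3 (a description across spots). Across the 41 G2/M and mitosis genes on all arrays, the log ratios themselves correlated at 0.764, 0.616 and 0.779, against 0.815, 0.504 and 0.566 over 9488 genes. Genes and spots are not independent replicates, and these values carry no test. On array 3, all 10 of the genes that rose and were measured there lay above 0, which a call on 3 arrays nearly requires.

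The number of calls depended on the arrays used. Without array 1 or without array 2, limma called 0 genes of any kind. At an unadjusted p under 0.05 it found 12 of 43 G2/M and mitosis genes higher and 3 lower without array 1, beside 25.9% of all genes in either direction. Without array 2 it found 12 of 41 higher and 0 lower, beside 23.8% of all genes in both directions together. At this unadjusted threshold the shares of all genes were not split by direction. Without array 3 it called 19 of the G2/M and mitosis genes higher and 2 lower of 43, against 25.1% higher and 20.8% lower of all genes. With limma's array weights (0.784, 3.62 and 0.353 for arrays 1, 2 and 3) it called 24 higher and 4 lower of 45, against 26.6% and 22.7% of all genes. With spots on all 3 arrays alone it called 13 higher and 1 lower of 41, against 16.6% and 12.4%, the gene that fell then being CCNA2 in place of PLK1. The 12 genes called over all arrays were also called with array weights and without array 3, but both settings called far more of all genes. The median of the G2/M and mitosis genes was 0.0586, 0.0664 and 0.0631 without arrays 1, 2 and 3.

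Beyond these 48 genes, 107 further genes of the same machinery were listed, also with earlier results known, and 95 were measured. Of these 14 rose, 3 fell and 78 did not pass, or 14.7% and 3.16%, beside the 8.16% and 5.75% of all genes. Their median was 0.0178. Among 23 spindle and cytokinesis genes 5 rose and 0 fell, with 8 at an unadjusted limma p under 0.05, a share no higher than the 36.9% of all genes. FAM83D, which anchors a kinase at the spindle, had 0.485, 0.326 and 0.418 (mean 0.410 ± 0.0798, n = 3, limma adjusted p = 0.0257). For FAM83D this is 2.57-fold on base 10 and 1.33-fold on base 2. CKAP2, a microtubule stabiliser, had 0.352, 0.381 and 0.232 (mean 0.322 ± 0.0789, n = 3, limma adjusted p = 0.0262). CEP55, which brings the abscission machinery to the midbody, had 0.280, 0.323 and 0.279 (mean 0.294 ± 0.0248, n = 3, limma adjusted p = 0.0249). Their means lay above those of all 45 measured G2/M and mitosis genes, and all their arrays lie above 0. NUMA1, the spindle pole organiser, had 0.240 and 0.402 on arrays 2 and 3 only. ARHGAP11A, a cytokinesis GTPase-activating protein, averaged 0.149.

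Among 18 cohesin and condensin genes, ESCO2, the acetyltransferase that establishes cohesion, rose to 0.313, 0.412 and 0.358 (mean 0.361 ± 0.0497, n = 3, limma adjusted p = 0.0249). For ESCO2 this is 2.30-fold on base 10 and 1.28-fold on base 2. CDCA5, sororin, rose by 0.106 ± 0.00374 (n = 3). None of the other 16 passed. Of 14 genes around the anaphase-promoting complex, its subunits CDC23 and CDC27 rose by 0.158 and 0.116, as did its inhibitor FBXO5 (0.150 ± 0.00179, n = 3). The catalytic RING subunit ANAPC11 fell, with -0.118, -0.249 and -0.136. Of 28 kinetochore genes, CENPH, CENPQ and SKA3 rose by 0.144, 0.131 and 0.149. CENPT, which links the centromere to the NDC80 complex, fell to -0.169 ± 0.0242 (n = 3, limma adjusted p = 0.0290). Of 12 further kinases and regulators, BORA, the activator of AURKA and PLK1, rose by 0.117, and the kinase MELK fell to -0.152 ± 0.0229 (n = 3, limma adjusted p = 0.0328). CDC27 and CDCA5 lost the threshold when arrays were centred (limma adjusted p = 0.0539 and 0.0517). In the order above, the shares of these 4 groups that rose were 11.1%, 21.4%, 10.7% and 8.33%, beside 8.16% of all genes. The shares that fell were 0%, 7.14%, 3.57% and 8.33%, beside 5.75%. An unadjusted limma p under 0.05 was found for 5 of 18, 5 of 14, 8 of 28 and 4 of 12, beside 36.9% of all genes.

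**Figure D5:**
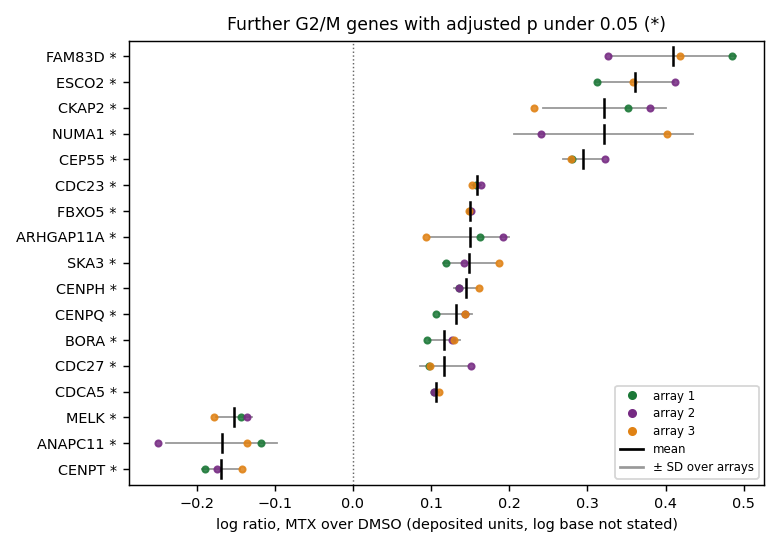
Log ratio of MTX over DMSO (horizontal, deposited units) for the 17 further G2/M genes past the threshold; points are arrays, black ticks means and grey bars the SD over arrays. FAM83D, ESCO2, CKAP2, NUMA1 and CEP55 stand apart at 0.294 to 0.410, and ANAPC11, CENPT and MELK lie below 0 on all arrays.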

How the data were processed

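The deposited table holds log ratios that the authors obtained, per the series' design text, from GenePix scans with local median background subtraction and LOWESS normalisation; log10 was taken as the working scale of these deposited values, whose base and direction are not stated. The choice of base leaves every p-value as it is. The authors' significance analysis was not repeated, since its settings are not given. Of 31615 spots, 22472 had 1 gene symbol, 80 several and 9063 none. The Entrez identifiers of 22444 were found in RefSeq (GRCh38.p14) and 0 symbols changed. Arrays 1, 2 and 3 held 21224, 25272 and 25927 values, with medians of 0.00137, 0.00222 and 0.00194. The 16867 spots with 1 symbol and values on at least 2 arrays were averaged per gene and array, giving 11741 genes, 9488 on 3 arrays and 2253 on 2; a missing array was left out of a gene's fit, not imputed. Each mean was tested against 0, two-sided, with lmFit and eBayes of limma 3.58.1 (R 4.3.3) and Benjamini-Hochberg adjustment over all genes, at a threshold of 0.05. SDs are over arrays. The fit was tested on simulated data. No set test was run. Promoter windows came from RefSeq tables.

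The 48 genes, their roles and the further genes were chosen with earlier results of these data known. By the naming rule, array values are given for those of the 48 genes past the threshold or on 2 arrays, and for examples among the rest, and genes whose spots differ in sign are named; further genes are named where they passed. The number of arrays limits the precision. Figures were drawn with matplotlib 3.10.9.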

Additional observations from a re-analysis of the deposited data

How the results depend on the processing

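The 12 called genes kept their direction under every alternative that could be run. All genes called were 958 higher and 675 lower, against 1557 and 1169 with spots on all 3 arrays, 3120 and 2664 with array weights, and 2001 and 1962 of 23239 single spots. Leaving out 1 array gave 0 to 2501 higher and 0 to 2078 lower. G2/M and mitosis genes called, 11 and 1, became 24 and 4 with array weights and 0 to 19 and 0 to 2 with 1 array left out; 3 of their single spots were called lower, and 0 genes were lower after a running median over 201 neighbouring spots was removed, where PLK1 gave an adjusted p of 0.0734 and DLGAP5 of 0.0552 in limma. Genes whose sign turned did not pass anywhere. CKS1B gave 0.00495 with spots on all 3 arrays and -0.0398 to 0.0106 with 1 array left out. BIRC5 gave 0.00529 with array weights, 0.00100 after the running median and -0.0323 to 0.0339 with 1 array left out. KIF20A gave -0.00414 from its first spot, -0.00283 from the median over spots and -0.00263 to 0.0392 with 1 array left out. The cause of these changes was not tested, except that fewer genes or arrays entered some fits. Of 62 genes named with a test, 61 kept sign and call with the median over spots, with offsets removed and with the robust model, 59 with centred and 58 with scaled arrays, 55 with the first spot and after the running median, and 45 with array weights. With spots on all 3 arrays 51 of 57 did, and without arrays 1, 2 and 3, 30 of 60, 29 of 57 and 49 of 59. Signal over background could not be used as a limit, since only ratios were analysed. Each array pairs MTX RNA with DMSO RNA, so the test of its ratio against 0 already uses that pairing. No further pairing could be used because the arrays form 1 group.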
